A study of Mus musculus with 5 samples.

Results

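The splicing factor and hnRNP genes are the 56 gene rows, of 52542 outside the spike-ins, whose symbols begin with Srsf, Hnrnp, Sf3a, Sf3b, Snrp or Luc7l. They form 5 families with 11 Srsf, 20 Hnrnp, 9 Sf3, 13 Snrp and 3 Luc7l genes. The 4 rows of pseudogenes marked -ps were left out by the rule, and the rule uses gene symbols and no measured value. Their transcripts were counted by unique molecular identifiers (UMIs) in single T cells, sorted as CD45+CD11b-TCRβ+ from the brain parenchyma without the choroid plexus. All 5 mice were of the strain Grl1loxP/loxP, named for loxP sites in the glucocorticoid receptor gene. TAT-CRE, a cell-permeable Cre recombinase with no promoter that limits it to a cell type, was injected into the ventricles of mice 207, 208 and 215, aged 18, 18 and 19 weeks. PBS was injected into mice 216 and 218, aged 19 and 16 weeks. All mice then had foot shocks on 2 consecutive days (14 of 1 mA, then 5 of 0.7 mA) and were sampled on day 14. The design aimed at less glucocorticoid receptor at the choroid plexus, a tissue that was not sampled, so the knockdown itself was not checked here. Each library was taken as 1 mouse. Nothing in the labels says whether animals were pooled.

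Splicing removes introns from nascent transcripts in the spliceosome, which is built from small nuclear RNAs and their proteins. The Snrp genes encode mostly Sm proteins, which form a ring on these RNAs, and the Sf3 genes encode subunits of the complexes with which the spliceosome recognises the branch point. Luc7l proteins act with the particle that reads the start of an intron. SR proteins (Srsf) bind exons and mostly favour their use, while hnRNP proteins coat nascent transcripts and often repress exons. In T cells such proteins are known for alternative exons of CD45, which change on activation. The counts measure amounts of transcript and not splice choices.

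The limits on wells left 1482 cells, 311, 303 and 298 of TAT-CRE 207, 208 and 215 beside 296 and 274 of PBS 216 and 218. They held 259756 to 470720 UMIs per mouse outside 4 ribosomal RNA genes, and levels are given as counts per 1000000 of these UMIs (CPM). The ribosomal share of UMIs was 28.3% for TAT-CRE 208, with the remaining mice at 43.9% to 48.0%, and TAT-CRE 208 was also the shallowest, with a median of 993 UMIs per cell against 1410 to 2660. The summed T cell marker list, with all 9 genes found, lay at 7284 to 8751 CPM. Neuron and neutrophil markers were at 0 in every mouse. The microglial list had 3 of 7 genes found and lay at 6.54 to 104 CPM in the TAT-CRE mice and 57.4 to 156 CPM in the PBS mice, with P2ry12, Tmem119, C1qb and Csf1r at 0. The endothelial list had 1 of 3 genes found and lay at 36.0 to 272 and 43.2 to 61.6 CPM. The oligodendrocyte list had 2 of 4 genes found, with Mog and Mag at 0, and lay at 146 to 213 and 163 to 229 CPM. The natural killer cell list, with all 3 genes found, lay at 0 to 19.2 CPM in the TAT-CRE mice and 21.2 to 83.1 CPM in the PBS mice. The groups did not overlap, as for 9.76% of all genes tested with TAT-CRE lower, but the nearest values lay close. The B cell list (2 of 4 genes found) lay at 5.33 to 39.2 and 2.12 to 6.64 CPM. The choroid plexus list (1 of 3) lay at 9.81 to 11.5 and 8.50 to 9.97 CPM, and the astrocyte list (1 of 3) at 0 to 3.27 and 0 CPM. The part of these in the results was not tested. The 384 well barcodes recur in every library by design, and the 5 pool barcodes keep the libraries apart.

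Of the 56 members, 55 are protein coding in the GENCODE M21 annotation, and Snrpert is a processed pseudogene. They lie on 18 chromosomes. The 150 bases upstream of the RefSeq start of 1 gene per family follow, to show what kind of start region these genes have: in 4 families the member with the most UMIs whose window reaches no more than 30 bases into the gene as GENCODE draws it, and Luc7l3, the Luc7l gene with the smallest p between the groups. RefSeq and GENCODE starts differ by some bases, so the last 30, 25 and 3 bases of the windows of Snrpb2, Luc7l3 and Sf3b1 lie inside the GENCODE gene; Snrpg and Snrpf, with more UMIs than Snrpb2, were passed over for overlaps of 150 and 48 bases. The windows shown lie, in the build GRCm38.p6, at chr12:80945349-80945498 on the plus strand for Srsf5, chr6:51469895-51470044 on the minus strand for Hnrnpa2b1, chr1:55027479-55027628 on the minus strand for Sf3b1, chr2:143062919-143063068 on the plus strand for Snrpb2 and chr11:94321964-94322113 on the minus strand for Luc7l3. Capitals mark a GC box, a CCAAT box or an ETS motif on either strand, and adjoining capitals are motifs that touch or overlap.
Srsf5: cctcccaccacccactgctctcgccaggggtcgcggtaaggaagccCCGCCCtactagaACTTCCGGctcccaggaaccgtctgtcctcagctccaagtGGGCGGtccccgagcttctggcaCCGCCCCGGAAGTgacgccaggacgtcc
Hnrnpa2b1: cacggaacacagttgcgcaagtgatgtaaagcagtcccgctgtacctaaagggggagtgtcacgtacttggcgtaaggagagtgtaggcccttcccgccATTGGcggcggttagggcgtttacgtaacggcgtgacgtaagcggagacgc
Sf3b1: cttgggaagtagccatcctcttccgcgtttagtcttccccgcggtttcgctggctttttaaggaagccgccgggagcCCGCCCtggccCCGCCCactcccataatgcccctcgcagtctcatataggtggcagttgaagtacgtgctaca
Snrpb2: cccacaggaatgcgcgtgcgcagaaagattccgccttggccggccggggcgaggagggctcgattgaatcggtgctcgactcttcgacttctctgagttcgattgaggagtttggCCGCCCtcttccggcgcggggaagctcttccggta
Luc7l3: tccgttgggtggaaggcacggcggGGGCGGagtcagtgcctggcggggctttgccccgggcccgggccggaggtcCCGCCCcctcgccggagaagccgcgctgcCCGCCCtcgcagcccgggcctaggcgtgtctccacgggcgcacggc

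Promoters of 48 members were found in the RefSeq table, and the 250 bases upstream of each start were searched on both strands. The GC box, spelled GGGCGG, was in 33 of the 48 (68.75%), against 33.0% of all 27025 promoters of the same length. The ETS motif, spelled CCGGAAGT, was in 6 (12.5%, against 2.95%): Hnrnpd, Hnrnpf, Sf3a3, Sf3b2, Srsf4 and Srsf5. The CCAAT box, which is its own spelling, was in 21 (43.75%, against 34.5%) and the TATA box (TATAAA) in 5 (10.4%, against 13%). The NRF1 and YY1 (AAGATGGCG) motifs were in none, against 0.781% and 0.599% of all promoters. The median GC content was 60.6% in members and 52.0% in all promoters. These matches describe letters and not bound sites.

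The 56 members together held 14997 UMIs, 0.876% of those outside ribosomal RNA genes, and their summed level hardly varied between mice. It was 8442, 8893 and 8936 CPM in TAT-CRE 207, 208 and 215 and 8731 and 8835 CPM in PBS 216 and 218, with exact binomial 95% intervals from 8151 to 8739 CPM in TAT-CRE 207 and from 8605 to 9276 CPM in TAT-CRE 215, the lowest and highest mouse. The TAT-CRE mean was 8757 ± 274 CPM (SD, n = 3), and the PBS mean 8783 ± 74.1 CPM (SD, n = 2). The groups overlapped, and the difference of -26.2 CPM was smaller than either SD. Its sign was not stable: it ran from -116 CPM without TAT-CRE 215 to 131 CPM without TAT-CRE 207, and was 26.15 CPM without PBS 218. With ribosomal RNA genes in the denominator, which rescales all genes of a mouse alike, it was 352 CPM with TAT-CRE 208 and -235 CPM without that mouse, whose ribosomal share was the lowest. The coefficient of variation over the 5 mice was 2.25% for the sum and 28.5% in the median over the 51 members with at least 50 UMIs. Intervals cover counting error only and treat UMIs as independent. Member UMIs were gathered in fewer cells than depth would give (below), so these intervals may be too narrow.

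The Hnrnp family held 51.1% of the member UMIs, followed by Srsf (18.5%), Snrp (13.6%), Sf3 (12.7%) and Luc7l (4.07%). The 10 members with the most UMIs held 43.7%, and Hnrnpa2b1 alone 10.1%. The Hnrnp sum was 4537, 4242 and 4479 CPM in TAT-CRE 207, 208 and 215 and 4555 and 4510.1 CPM in PBS 216 and 218. Its difference between the group means was -113 CPM, and 109 CPM with ribosomal RNA genes counted (-106 CPM when TAT-CRE 208 was then left out); with each mouse left out it was -171.5 to -24.4 CPM on the scale used here. The Srsf sum was 1415, 2006 and 1524 CPM in TAT-CRE 207, 208 and 215 and 1581 and 1663 CPM in PBS 216 and 218. TAT-CRE 208 was the highest and TAT-CRE 207 the lowest, and the PBS mice lay between them. The Snrp sum was 1074, 1274 and 1223 CPM in TAT-CRE 207, 208 and 215 and 1236 and 1175 CPM in PBS 216 and 218, and the Sf3 sum was 1045, 843 and 1327 CPM in TAT-CRE 207, 208 and 215 and 1189 and 1134 CPM in PBS 216 and 218. Sf3 was lowest in TAT-CRE 208 and highest in TAT-CRE 215. The Luc7l sum was 370.5, 527 and 383 CPM in TAT-CRE 207, 208 and 215 and 169 and 353 CPM in PBS 216 and 218, with PBS 216 lowest; the highest mouse was 3.11 times the lowest, against 1.07 times for Hnrnp. Without PBS 216 the Luc7l spread was 1.5 times, below the 1.57 times of Sf3.

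**Figure D1:**
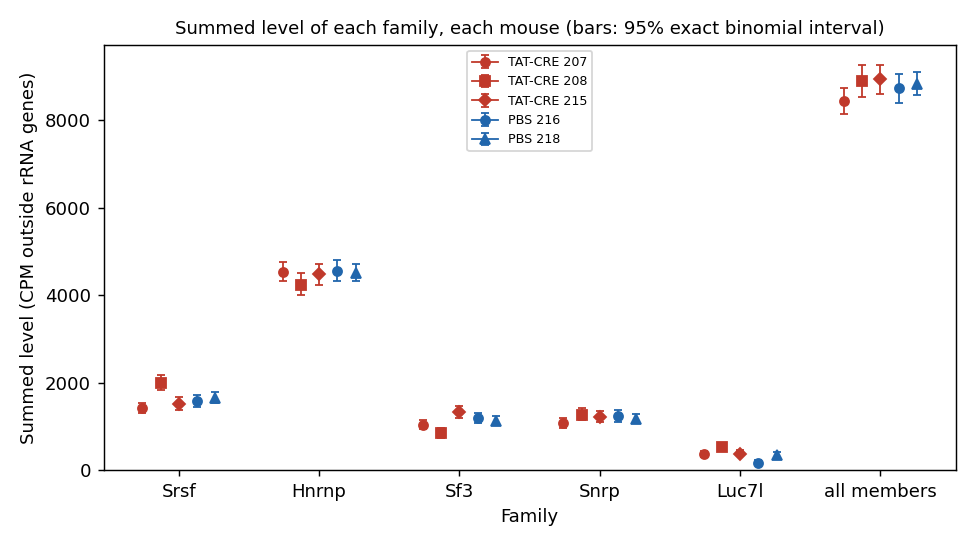
Summed level of each family and of all members in CPM outside ribosomal RNA genes (vertical axis, from 0), 1 point per mouse with its exact binomial 95% interval; TAT-CRE mice are red and PBS mice blue. Hnrnp lies between 4242 and 4555 CPM in all mice, and Luc7l is lowest in PBS 216 at 169 CPM. The intervals treat UMIs as independent.

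Among the SR protein genes, Srsf5 had the most UMIs (459), at 317, 262 and 248 CPM in TAT-CRE 207, 208 and 215 and 233 and 268 CPM in PBS 216 and 218. The mice lay close together and the groups overlapped. Srsf3, an SR protein known for both splicing and mRNA export, was at 229, 212 and 163 CPM with TAT-CRE against 276 and 183 CPM with PBS. Srsf7 was at 208, 369.6 and 131 CPM with TAT-CRE against 136 and 229 CPM with PBS and spread more widely, with TAT-CRE 208 highest. Srsf1, among the earliest SR proteins studied as splicing factors, was at 117, 319.5 and 177 CPM with TAT-CRE against 149 and 261 CPM with PBS. Its highest and lowest values both came from TAT-CRE mice. Srsf11 was at 227, 266 and 179.8 CPM with TAT-CRE against 322 and 164 CPM with PBS and Srsf6 at 101, 189 and 268 CPM with TAT-CRE against 93.0 and 234 CPM with PBS; PBS 216 was the highest mouse for the former and the lowest for the latter. Srsf2 was at 90.6, 146 and 137 CPM with TAT-CRE against 139.5 and 147 CPM with PBS, and only TAT-CRE 207 stood below the rest. Srsf10 ranged from 53.3 to 106 CPM, Srsf4 and Srsf9 from 31.9 to 91.5 CPM, and Srsf12 had 1 UMI.

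Hnrnpa2b1, which encodes hnRNP A2 and B1, had the most UMIs of all members (1519), at 858, 1036 and 808 CPM in TAT-CRE 207, 208 and 215 and 997 and 809 CPM in PBS 216 and 218. The group means were 900 ± 120 CPM (SD, n = 3) and 903 ± 132 CPM (SD, n = 2), and the log2 fold change was -0.00 ± 0.21. Hnrnpu, known for binding both RNA and chromatin, was at 586, 477 and 703 CPM with TAT-CRE against 462 and 499 CPM with PBS; TAT-CRE 215 was highest, and the groups overlapped. Hnrnpk, which binds C-rich stretches, was at 397, 635 and 441 CPM with TAT-CRE against 419 and 461 CPM with PBS, with TAT-CRE 208 above the other mice. Hnrnpab was at 299, 273 and 464 CPM with TAT-CRE against 442 and 276 CPM with PBS, 1 high mouse coming from each group. Hnrnpc, which packages nascent transcripts, was at 339, 243 and 307 CPM with TAT-CRE against 312 and 323 CPM with PBS, and Hnrnpm at 277, 196 and 219 CPM with TAT-CRE against 216 and 221 CPM with PBS. Both varied little apart from 1 TAT-CRE mouse each. Hnrnpa0 was at 171, 219 and 183 CPM with TAT-CRE against 259 and 234 CPM with PBS and Hnrnpdl at 211, 84.7 and 213 CPM with TAT-CRE against 276 and 238 CPM with PBS, and in both cases all TAT-CRE values were under the PBS values. The other 12 Hnrnp genes had means over the mice of 25.6 to 206 CPM. Hnrnpll, a regulator of CD45 exons named here after its values were seen, was at 125, 65.4 and 3.27 CPM with TAT-CRE against 56.5 and 132 CPM with PBS, with 1 UMI in TAT-CRE 215.

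Among the branch point factors, Sf3b1 (501 UMIs) was at 296, 212 and 317 CPM in TAT-CRE 207, 208 and 215 and 236 and 355 CPM in PBS 216 and 218, and Sf3b2 at 296, 212 and 383 CPM with TAT-CRE against 272 and 204 CPM with PBS. Neither separated the groups. Sf3b6 was at 159.9, 119 and 154 CPM with TAT-CRE against 216 and 142 CPM with PBS, and Sf3b3 at 109, 77.0 and 88.3 CPM with TAT-CRE against 113 and 82.9 CPM with PBS. Sf3a1 was at 77.3, 38.5 and 193 CPM with TAT-CRE against 83.1 and 106 CPM with PBS, with TAT-CRE 215 far above TAT-CRE 208. Sf3b5 was at 26.7, 34.6 and 81.7 CPM with TAT-CRE against 126 and 80.7 CPM with PBS; TAT-CRE 207 and 208 were low, and TAT-CRE 215 was level with PBS 218. Sf3b4, Sf3a3 and Sf3a2 lay between 10.7 and 89.2 CPM in every mouse. Of the Sm genes, Snrpg had the most UMIs (323), at 176, 150.1 and 137 CPM with TAT-CRE against 256 and 210.3 CPM with PBS, and all 3 TAT-CRE mice lay below both PBS mice. Snrpf was at 159.9, 204 and 163 CPM with TAT-CRE against 143 and 172 CPM with PBS and Snrpb at 147, 131 and 144 CPM with TAT-CRE against 199 and 91.3 CPM with PBS, with the groups overlapping. Snrpd1, Snrpd2, Snrpd3 and Snrpe, also of the Sm ring, and Snrpb2, of the particle at the branch point, lay between 48.0 and 192 CPM in every mouse. Snrpa1, Snrpc, Snrpa and Snrpert lay between 8.0 and 58.6 CPM, and Snrpn had 2 UMIs in 1 cell.

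**Figure D2:**
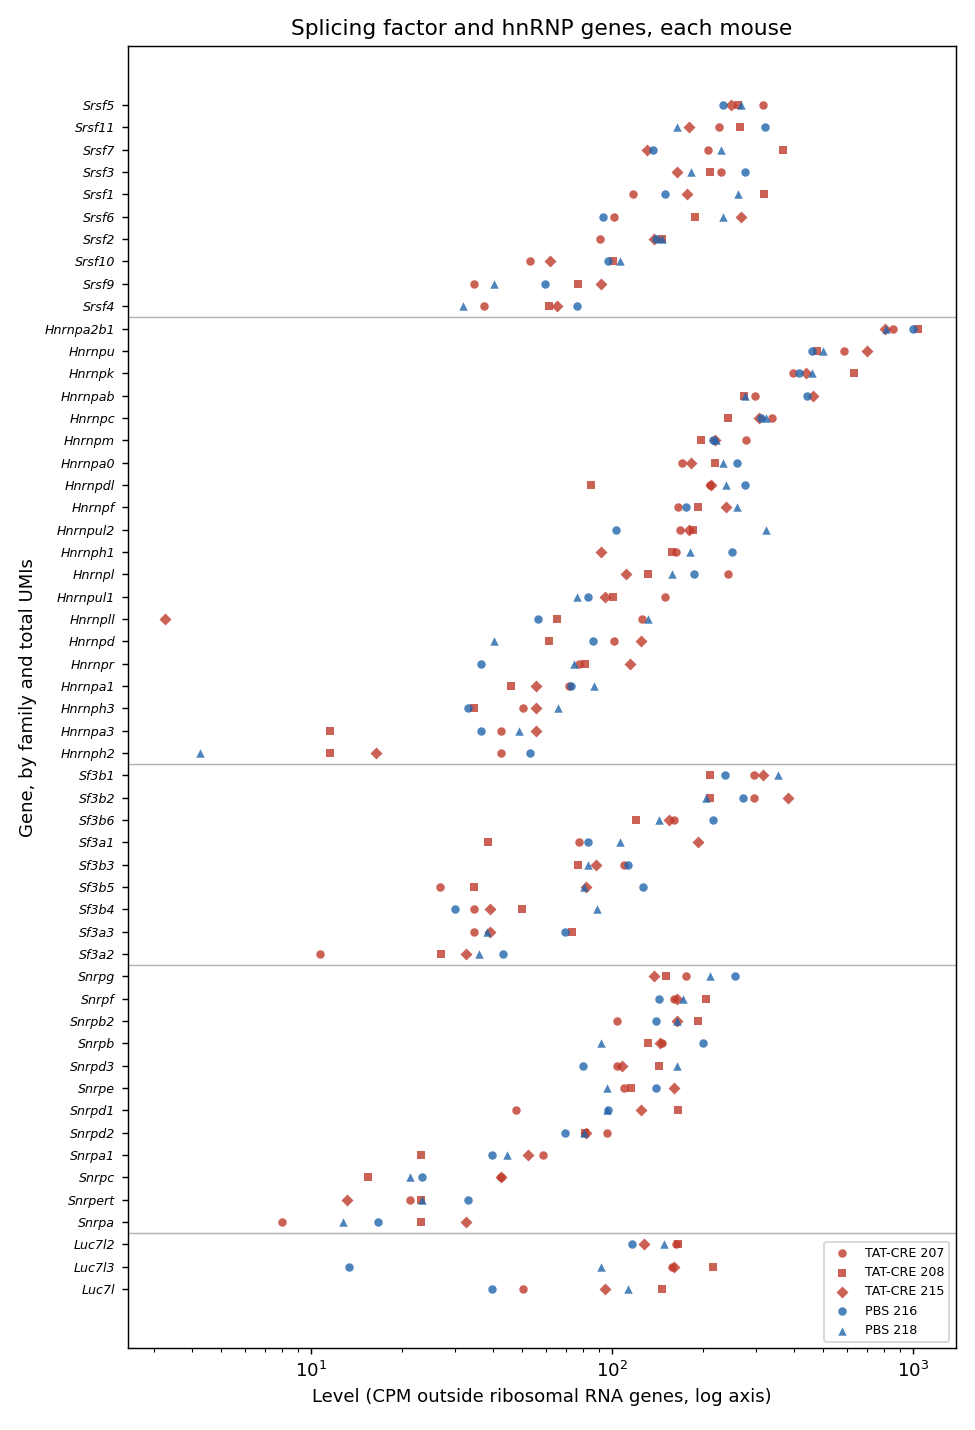
Level of each member with at least 10 UMIs (54 genes) in CPM outside ribosomal RNA genes on a log axis, 1 point per mouse, ordered by family and total UMIs; TAT-CRE mice are red and PBS mice blue. Hnrnpa2b1 is the highest in every mouse, at 808 to 1036 CPM, and single mice stand far to the left for Hnrnpll (TAT-CRE 215, 3.27 CPM) and Luc7l3 (PBS 216, 13.3 CPM).

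No member passed the threshold between TAT-CRE and PBS mice. edgeR's quasi-likelihood test took 52 of the 56 members, and 0 passed a Benjamini-Hochberg adjusted p of 0.05, as did 0 of all 5996 genes tested (0%). Srsf12, Snrpa, Snrpn and Snrpert were too low to be tested. At an unadjusted p under 0.05, 1 member was higher and 0 lower with edgeR, against 2.05% and 1.58% of all genes. DESeq2 also called 0 members and had 1 at that unadjusted level, where its share of all genes is not given here. The median log2 fold change was -0.04 over the 52 members and -0.00 over all genes, with 23 members above 0 and 29 below. The groups did not overlap for 4 tested members with TAT-CRE higher (Hnrnpr, Hnrnpul1, Luc7l3 and Snrpd2) and 6 with TAT-CRE lower (Hnrnpa0, Hnrnpa1, Hnrnpdl, Hnrnph1, Sf3a2 and Snrpg). Over all genes these shares were 9.06% and 9.76%, close to those of the members. In simulated data of this size, 1 of 100 genes changed 2-fold and 18 of 100 changed 4-fold were called, so most changes of these sizes would not be called here, and the absence of calls does not show that levels were alike.

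Luc7l3, whose protein has a Luc7 domain and an arginine- and serine-rich tail, had the smallest p. Its level was 157, 216 and 160.2 CPM in TAT-CRE 207, 208 and 215 and 13.3 and 91.3 CPM in PBS 216 and 218, from 59, 56 and 49 UMIs and from 4 and 43 UMIs. All TAT-CRE mice lay above both PBS mice, and PBS 216 was far below PBS 218. These UMIs came from 14, 12 and 17 cells with TAT-CRE against 3 and 14 cells with PBS, and 1 cell of TAT-CRE 208 held 21 of them. The log2 fold change was 1.69 ± 0.58 (unadjusted p = 0.0125, adjusted p = 0.9996, edgeR). Without PBS 216 it was 0.97 ± 0.53, without PBS 218 it was 3.69 ± 0.77, and with each cell's count limited to 1 it was 0.92 ± 0.49. The other Luc7l genes did not separate the groups: Luc7l2 was at 163, 166 and 128 CPM with TAT-CRE against 116 and 149 CPM with PBS, and Luc7l at 50.6, 146 and 94.8 CPM with TAT-CRE against 39.9 and 113 CPM with PBS.

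Next in the order of unadjusted p came Sf3b5 (-1.10 ± 0.59), Snrpg (-0.59 ± 0.33), Hnrnph1 (-0.64 ± 0.37) and Hnrnpdl (-0.58 ± 0.39), given as log2 fold changes ± SE, each with an edgeR adjusted p of 0.9996. Hnrnph1, which binds G-rich stretches, was at 163, 158 and 91.5 CPM with TAT-CRE against 249 and 181 CPM with PBS. All 4 genes had lower means in TAT-CRE mice, and none passed the adjusted threshold. The sizes depended on single mice: with each mouse left out, Sf3b5 ran from -1.75 (without TAT-CRE 215) to -0.74 (without PBS 216), Hnrnph1 from -0.86 (without PBS 218) to -0.38 (without PBS 216), Hnrnpdl from -0.77 (without TAT-CRE 215) to -0.26 (without TAT-CRE 208) and Snrpg from -0.72 to -0.42.

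**Figure D3:**
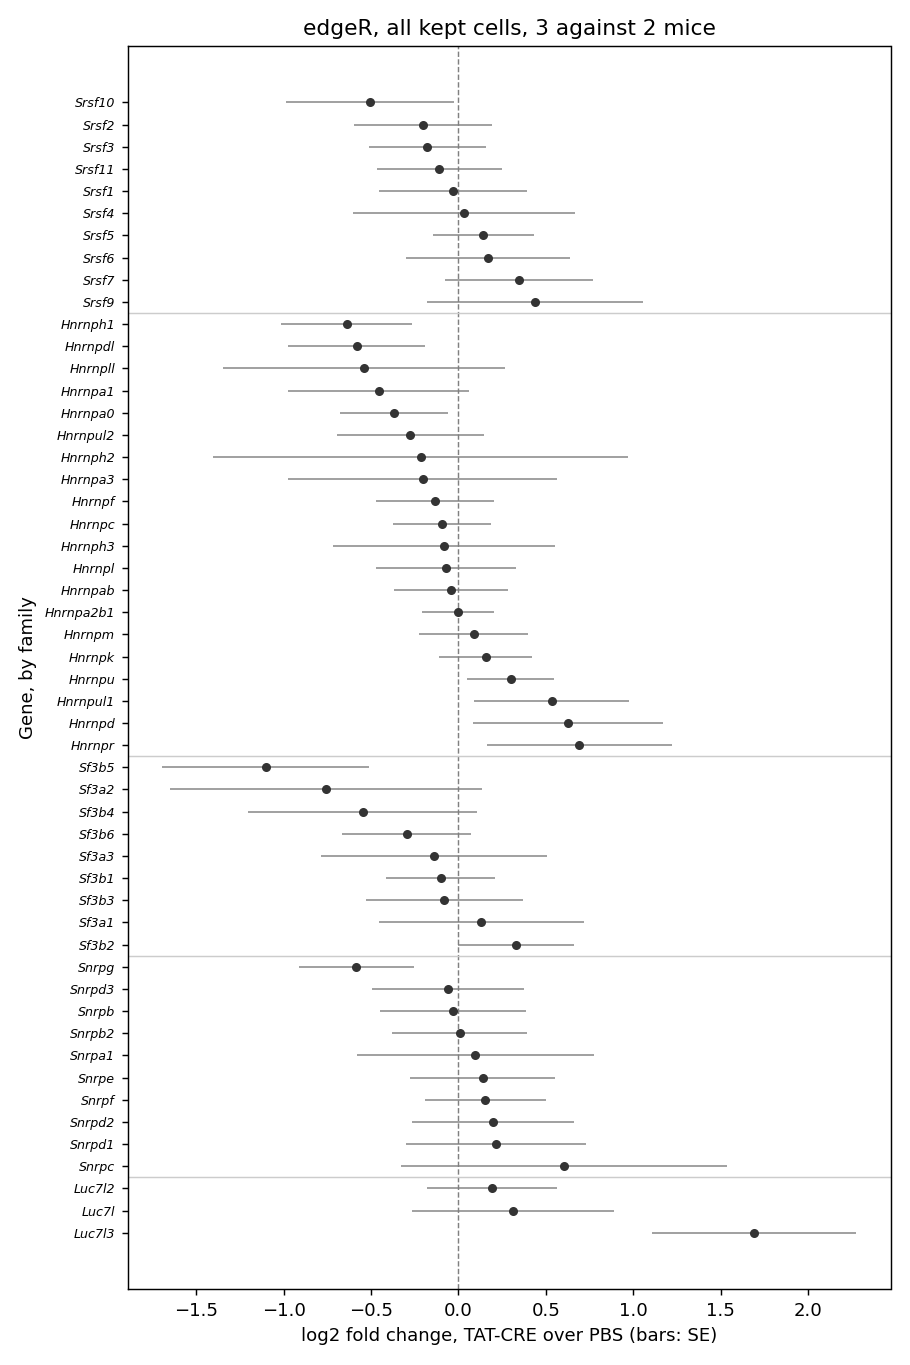
log2 fold change of TAT-CRE over PBS mice (horizontal axis) with its SE (bars) for the 52 members tested with edgeR, grouped by family. The points lie on both sides of 0, from -1.10 for Sf3b5 to 1.69 for Luc7l3, and no member passed an adjusted p of 0.05.

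Other splicing genes gave the same count of calls. Of 105 genes in 4 further lists, 93 were tested and 0 passed: 45 of 55 snRNP and spliceosome genes (21 higher, 24 lower by sign; median log2 fold change -0.09), 16 of 17 SR-like proteins and their kinases (3 and 13; -0.38), 28 of 29 other RNA-binding regulators (15 and 13; 0.04) and all 4 of the exon junction complex (3 and 1; 0.15). The SR-like list summed to 2447, 2109.7 and 2276 CPM in TAT-CRE 207, 208 and 215 and 2326 and 3229 CPM in PBS 216 and 218; PBS 218 stood above the other 4 mice, and PBS 216 lay among the TAT-CRE mice. The helicase gene Ddx5 had the most UMIs of them (2983), with 1871 ± 310.2 CPM (TAT-CRE) and 1608 ± 165 CPM (PBS). Mbnl1, a regulator of alternative exons, was at 1163 ± 165 and 1030.3 ± 159 CPM. Son and Srrm2, large scaffold proteins of nuclear speckles, were at 442 ± 141 and 375 ± 79.4 CPM and at 238 ± 33.3 and 306 ± 75.3 CPM. Prpf38b and Cwc15, of the spliceosome, were at 324 ± 161 and 259 ± 192 CPM and at 277 ± 72.3 and 211 ± 87.5 CPM. Magoh and Casc3, of the exon junction complex, were at 133 ± 21.4 and 110.1 ± 41.6 CPM and at 65.9 ± 8.46 and 107 ± 13.1 CPM (SD, n = 3 and 2 throughout).

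A UMI of any member was found in 1406 of 1482 cells (94.9%), with a median of 3 member genes per cell and a maximum of 20. Since depth differed, each cell was also thinned to 400 UMIs. The share of cells with a member UMI was then 76.1%, 78.6% and 75.9% with TAT-CRE and 76.4% and 77.4% with PBS, compared to 91.1% to 97.1% without thinning. The 400 UMIs include ribosomal RNA, so that TAT-CRE 208 kept more other UMIs and moved from the lowest share to the highest. Thinned to 200 UMIs outside ribosomal RNA genes, an alternative chosen after seeing the data, the shares were 73.6%, 70.6% and 74.9% with TAT-CRE and 73.0% and 74.6% with PBS, with TAT-CRE 208 lowest. By family the shares thinned to 400 UMIs in TAT-CRE and PBS mice were 52.5 ± 1.61% and 53.2 ± 0.11% for Hnrnp, 24.2 ± 3.68% and 24.1 ± 1.54% for Srsf, 20.1 ± 2.23% and 20.1 ± 0.33% for Snrp, 16.5 ± 2.10% and 18.5 ± 0.42% for Sf3 and 5.98 ± 1.45% and 4.02 ± 1.87% for Luc7l (SD, n = 3 and 2). Of the 20 wells without a cell, 4 had a member UMI (5 UMIs: 3 of Hnrnpa2b1, 1 of Hnrnpk and 1 of Srsf1). These wells had a median of 40 UMIs, against 1662.5 in kept cells, and held 0.25 member UMIs per well against 10.1. As a share of UMIs the members were at 8104 CPM there (exact binomial 95% interval 2636 to 18809), against 8757 CPM in kept cells.

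Members were found in fewer cells than their UMIs and the depth of the cells would give. Hnrnpa2b1, in 436 cells (29.4%), had 3.48 UMIs per cell with a UMI and was in 51.1% of the cells expected if its UMIs had fallen in proportion to depth. Srsf11 and Luc7l3 were each in 31.4% of that number, and Snrpc, at the other end, in 79.9%. Over the 51 members with at least 50 UMIs the median was 45.6%, with 2.68 UMIs per positive cell. All 5511 genes in the same range of UMIs had medians of 42.3% and 2.57, so the members were close to other genes in this respect. With counts limited to 1 per cell and gene, the common dispersion between mice was 0.024 over 3138 tested genes, against 0.176 over 5996. The gene sets differ, so the drop is not due to the limit alone by necessity.

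**Figure D4:**
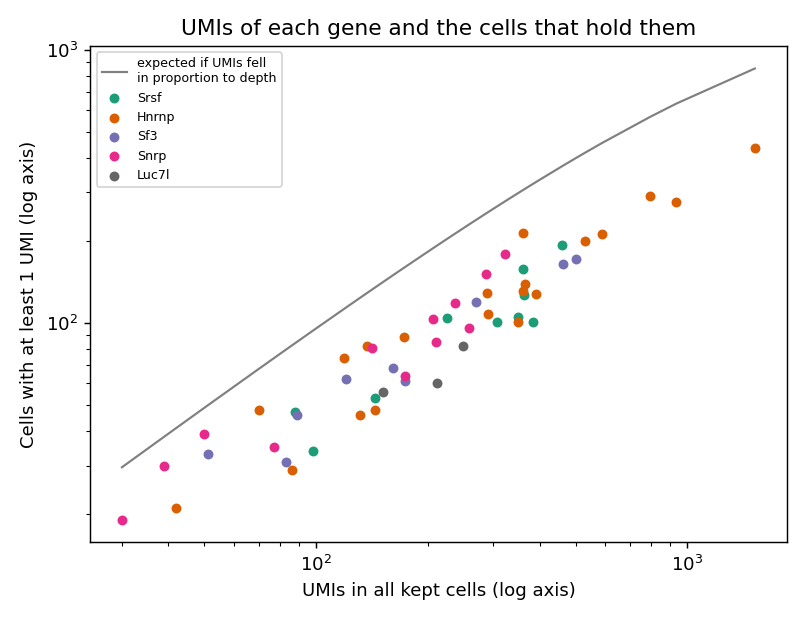
Cells with at least 1 UMI (vertical, log axis) against UMIs in all kept cells (horizontal, log axis) for members with at least 10 UMIs, coloured by family; the grey line is the number of cells expected if UMIs fell in proportion to depth. All points lie below the line, from 31.4% to 79.9% of it among members with at least 50 UMIs.

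By their own transcripts, 630 kept cells were of the CD8 lineage (a Cd8a or Cd8b1 UMI and none of Cd4), 85 of the CD4 lineage (a Cd4 UMI and none of Cd8), 25 had both and 742 neither. For genes outside the definition the pooled values, with no test, were 238 CPM in CD4 and 21.8 CPM in CD8 cells for Cd40lg, a CD4 T cell ligand (26 and 18 UMIs), and 82.4 and 39.9 CPM for Zbtb7b, the CD4 lineage factor (9 and 33 UMIs, of which PBS 218 held 27 of the 33). The measured order was reversed for Cd40lg in PBS 216 (0 UMIs in CD4 and 4 in CD8 cells). It was also reversed for Zbtb7b in TAT-CRE 208 (0 and 1 UMIs), and PBS 216 had 0 Zbtb7b UMIs in both classes. Cells with neither transcript held Cd40lg at 117 CPM and Zbtb7b at 57.4 CPM. Those cells were shallower (median of 1316 UMIs against 1986 and 1717) and are not a lineage. CD4 cells numbered 22, 19 and 23 with TAT-CRE against 13 and 8 with PBS, so their levels rest on few UMIs; CD8 cells numbered 174, 76 and 125 against 134 and 121. The summed level of all members was 8794 ± 170.4 CPM in CD8 cells, 9154 ± 952 CPM in CD4 cells and 8633 ± 436 CPM in cells with neither (SD, n = 5). In CD8 cells it was 8512, 8974 and 8831 CPM in TAT-CRE 207, 208 and 215 and 8800.5 and 8850.0 CPM in PBS 216 and 218.

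No member differed between the lineages past the threshold. With the mouse as a block, edgeR tested 15 members, and 0 passed. Of the 850 genes counted, 2 passed (0.235%), the chemokine gene Ccl5 and Ly6c2, both higher in CD8 cells. Cd4, Cd8a and Cd8b1 define the classes and were left out of the counts of calls. At an unadjusted p under 0.05 there were 0 members with edgeR (against 3.76% of all genes higher and 2.00% lower). With DESeq2 there was 1, and its share of all genes at that level is not given here. Sf3b1 had the smallest p (log2 CD8 over CD4 -1.21 ± 0.68, edgeR adjusted p = 0.897); with each mouse left out the fold change ran from -1.68 (without PBS 216) to -0.67 (without TAT-CRE 208). In CD8 cells it was at 238, 98.2 and 260.4 CPM in TAT-CRE 207, 208 and 215 and 206 and 279 CPM in PBS 216 and 218. In CD4 cells it was at 816, 825 and 395 CPM in TAT-CRE 207, 208 and 215 and 0 and 782 CPM in PBS 216 and 218; the 0 in PBS 216 allows up to 224 CPM. CD4 cells were thus higher in 4 of 5 mice. The Sf3 sum, which contains Sf3b1, was at 1055 ± 283 CPM in CD8 and 1577 ± 443 CPM in CD4 cells (SD, n = 5) and higher in CD4 cells in 4 of 5 mice. Without Sf3b1 it was 839 ± 229 and 1013 ± 332 CPM (SD, n = 5), higher in CD4 cells in the 3 TAT-CRE mice and lower in both PBS mice. The Hnrnp sum, at 4427 ± 153 and 4607 ± 639 CPM (SD, n = 5), was also higher in CD4 cells in 4 of 5 mice. Its CD8 minus CD4 difference was -180 ± 702 CPM (SD, n = 5), with the SD larger than the difference, so the order was not established. The other families were higher in CD4 cells in fewer mice. In CD8 and CD4 cells the Snrp sum was 1282 ± 169 and 1087 ± 284 CPM and the Luc7l sum 348 ± 118 and 226 ± 98.5 CPM (SD, n = 5). Both were higher in CD8 cells in 3 of 5 mice. The Srsf sum, at 1681 ± 290 and 1657 ± 272 CPM (SD, n = 5), was higher in CD8 cells in 2 of 5 mice. The sums were not tested. Snrpg (1.07 ± 0.67) and Srsf5 (0.98 ± 0.64) followed Sf3b1 in the order of p. The value of Srsf5 was higher in CD8 cells in every mouse, at 261 ± 26.3 against 147 ± 71.3 CPM (SD, n = 5), as were 5.76% of all genes tested. Its CD4 values rest on 1, 3 and 4 UMIs in TAT-CRE 207, 208 and 215 and on 3 and 3 UMIs in PBS 216 and 218. The order was not decided where the values lay close, as in PBS 216 (262 CPM in CD8 and 224 CPM in CD4 cells). For 0 members the CD8 value was lower in every mouse, against 3.06% of all genes. Hnrnpk (-0.50 ± 0.42) and Hnrnpab (1.02 ± 0.85) came next. With each mouse left out, Hnrnpab ran from 0.52 (without TAT-CRE 207) to 1.94 (without PBS 216), Srsf5 from 0.59 (without TAT-CRE 207) to 1.25, Hnrnpk from -0.79 (without TAT-CRE 215) to -0.26 (without TAT-CRE 208) and Snrpg from 0.86 to 1.51. In simulated data, 23 of 100 genes changed 2-fold and 66 of 100 changed 4-fold were called in this comparison.

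**Figure D5:**
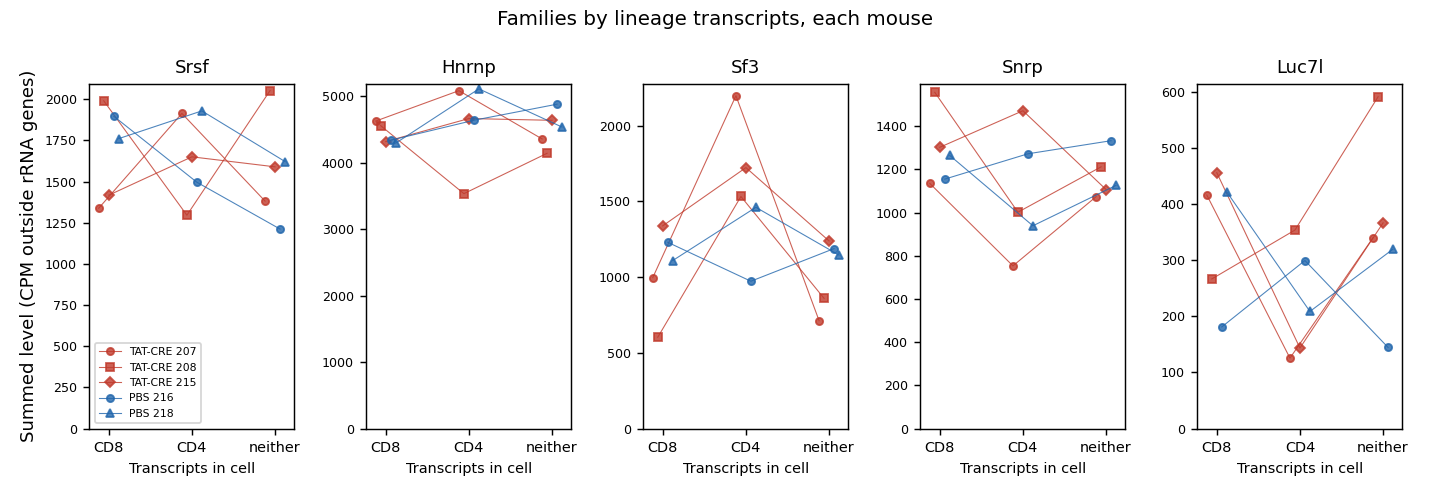
Summed level of each family in CPM outside ribosomal RNA genes (vertical axes from 0, each with its own scale) in cells with CD8, CD4 or neither transcript, 1 line per mouse; TAT-CRE mice are red and PBS mice blue. Sf3 and Hnrnp are each higher in CD4 than in CD8 cells in 4 of 5 mice. Snrp and Luc7l are each higher in CD8 cells in 3 of 5 mice, and Srsf in 2 of 5. These orders were not tested.

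Within CD8 cells, 47 members were tested between TAT-CRE and PBS mice and 0 passed, as did 0 of 3843 genes (0%). This class limits a changed mix of lineages but does not exclude it, since 1 Cd8a or Cd8b1 UMI without a Cd4 UMI places a cell in it. At an unadjusted p under 0.05, 0 members were higher and 1 was lower with edgeR, against 1.69% and 1.28% of all genes. DESeq2 had 0 members at that level, where its share of all genes is not given here. The lower member was Srsf1 (log2 -1.09 ± 0.49, unadjusted p = 0.0432, adjusted p = 0.997, edgeR). Its level in CD8 cells was 160.3, 168 and 79.6 CPM in TAT-CRE 207, 208 and 215 and 225 and 346 CPM in PBS 216 and 218, with all TAT-CRE values under the PBS values. Cells with neither transcript had the opposite order of means, at 74.4, 399.9 and 308 CPM in TAT-CRE 207, 208 and 215 and 32.1 and 209.9 CPM in PBS 216 and 218 (261 ± 168 CPM, SD, n = 3, against 121 ± 126 CPM, SD, n = 2). Over all kept cells the groups overlapped, with a log2 fold change of -0.03 ± 0.42. Hnrnpu (0.62 ± 0.31), Hnrnpr (1.31 ± 0.78), Hnrnpd (1.16 ± 0.71) and Luc7l3 (1.38 ± 0.97) came next, all higher in the mean of TAT-CRE mice. With each mouse left out, Hnrnpr ran from 0.67 (without PBS 216) to 2.63 (without PBS 218), Hnrnpd from 0.86 to 1.5, Hnrnpu from 0.44 to 0.83 and Srsf1 from -1.37 (without PBS 216) to -0.75 (without PBS 218). In CD8 cells Hnrnpu was at 637, 547 and 788 CPM in TAT-CRE 207, 208 and 215 and 368 and 484 CPM in PBS 216 and 218. Luc7l3 was at 199, 84.1 and 209.7 CPM in TAT-CRE 207, 208 and 215 and 0 and 124 CPM in PBS 216 and 218; the 0 in PBS 216 allows up to 18.7 CPM, and without that mouse the log2 fold change was 0.45 ± 0.80. Without PBS 218 it was 7.67, a fitted value against 0 UMIs that sets no bound. The groups did not overlap for 4 members with TAT-CRE higher (Hnrnpd, Hnrnpr, Hnrnpu and Snrpa1) and 2 with TAT-CRE lower (Sf3b5 and Srsf1), against 8.53% and 8.87% of all genes. In simulated data, 1 of 100 genes changed 2-fold and 5 of 100 changed 4-fold were called in this comparison.

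Some members share sequence with other genes, and how the authors assigned such reads is not given in the sources used here. For 11 members the last 500 bases of a transcript had a near copy elsewhere (at least 95% identity over at least 200 bases). Hnrnpa3 had 27 such copies with 217 UMIs, against 70 of its own, and Snrpe and its copy Snrpert had 207 and 39. Exons of 4 members overlapped another gene on the same strand, among them Hnrnpm with March2 and Snrpn with Snurf, and 19 had an antisense overlap. The counts of these members are uncertain to that extent.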

How the data were processed

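Single T cells of 5 mice were profiled with a plate method that barcodes RNA per well and counts UMIs. The authors deposited UMI counts that were not normalized, 1 table per mouse, made with bcl2fastq 2.15.0.4 and the build mm10 per the submitters' processing notes; aligner, annotation and strand setting: not given in the sources used here. A deposited table gives the number of cells per well, another value the authors recorded. Kept cells were wells with 1 cell, 400 or more UMIs that were not spike-ins and no more than 30% mitochondrial UMIs; depth ranged from 259756 to 470720 UMIs per mouse outside 4 ribosomal RNA genes, which were left out of levels and tests.

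Counts were summed per mouse, or per mouse and lineage, and all genes passing filterByExpr were tested with edgeR 4.0.16 (R 4.3.3; TMM factors, quasi-likelihood F test, Benjamini-Hochberg threshold 0.05). The lineage test kept the mouse as a block, since both sums of a mouse come from the same animal. DESeq2 1.42.0 was an alternative, with other UMI minimums, mitochondrial limits and filters, counts limited to 1 per cell and gene (chosen after seeing the data) and each mouse left out. The test was tried on simulated data with known changes. Summed levels of families were not tested. No pair of libraries was merged, and doublets were not called, since wells were sorted 1 cell each. The labels do not say whether the mice shared a litter or cage, so p-values measure the spread between these samples. Each mouse also had its own amplification batch, so differences between mice and between these batches cannot be told apart.

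The members, gene lists and tests were chosen with earlier results of these data known. Named genes are the 8 members with the most UMIs per family, every member past the threshold, the 5 with the smallest p in each comparison and the 2 genes with the most UMIs of each further list. Promoters are from RefSeq (GRCm38.p6) and gene positions from GENCODE M21. Tables were handled with Python 3.11.15, pandas 2.3.3 and scipy 1.17.1.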

Additional observations from a re-analysis of the deposited data

Results flagged for a closer look

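Srsf7 was flagged because the measured difference between CD8 and CD4 cells had opposite signs in the groups. Its value was lower in CD8 than in CD4 cells in all 3 TAT-CRE mice and higher in CD8 cells in both PBS mice. The mean CD8 minus CD4 level was thus 347 CPM lower in TAT-CRE mice (-347 CPM). The values rest on 18, 9 and 8 UMIs in CD4 cells of the TAT-CRE mice and on 1 and 0 UMIs in those of the PBS mice. In PBS 216 the order was not decided at this depth, since 87.4 CPM in CD8 cells stood against 1 UMI (74.8 CPM) in CD4 cells, where 3 counts equal 224 CPM. In TAT-CRE 208 it was not decided either, with 449 CPM in CD8 cells (32 UMIs) against 530 CPM in CD4 cells (9 UMIs). The signs therefore do not establish that the groups were apart. The difference between the groups was not tested.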

How the results depend on the processing

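The number of members called was 0 in all 3 comparisons under every alternative run. Genes called between TAT-CRE and PBS mice (0) were 1 with DESeq2, 8 without the low-count filter and 1 with counts limited to 1 per cell and gene, and 0 to 0 with each mouse left out. Members at an unadjusted p under 0.05 (1) were 2 with a minimum of 1000 UMIs, 0 with limited counts and 0 to 2 with each mouse left out (0 without PBS 216, 2 without TAT-CRE 215). Between the lineages, genes called (2) were 9 with DESeq2, 87 without the filter, 5 with at least 2 Cd8 UMIs and 2 to 3 with each mouse left out; members at the unadjusted level (0) were 1 with DESeq2, 10 without the filter and 0 to 1 with each mouse left out (1 without PBS 216). Without the replicate block that pairs lineages by mouse, 2 genes and 0 members were called and 1 member was at the unadjusted level. Hnrnpk, negative in the lineage test, was 0.29 without the filter, where the median log2 over all genes moved from 0.12 to 1.29 and Sf3b1 from -1.21 to -0.42. In CD8 cells, genes called (0) were 2 without the filter, 1 with limited counts and 0 to 1 with each mouse left out (1 without PBS 216); members at the unadjusted level (1) were 0 with DESeq2, 2 with a minimum of 1000 UMIs, 0 with limited counts and 0 to 3 with each mouse left out (0 without TAT-CRE 207 or 215, 2 without TAT-CRE 208, 3 without PBS 218). With ribosomal RNA genes counted, the difference between groups was 109 CPM for Hnrnp (main -113) and 352 CPM for all members (main -26.2); without TAT-CRE 208 these were -106 and -235 CPM, an alternative chosen after seeing the data. The Sf3 sum by lineage without Sf3b1 was also added after seeing the data. The cause of these changes was not tested. Without the filter the lineage test took 55 members and 14418 genes. The share of all genes at the unadjusted level is not given here for any alternative. The counts of members at that level are therefore not results about the members. No paired analysis was possible between the treatment groups because their replicate numbers are not shared. With 3 against 2 mice and sums in which few cells hold many UMIs, depth and replicate number limit what could be detected.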

Other observations

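Wells that the limits on cells removed also held members. The 195 wells over the mitochondrial limit had 1064 member UMIs, 9262 CPM (exact binomial 95% interval 8717 to 9833), and the 223 wells under the UMI minimum had 276, 11820.1 CPM (10474 to 13290.2), against 8757 CPM (8618 to 8898) in the 1482 kept cells. Mice differed in this: with mitochondrial UMIs left out, wells over the mitochondrial limit were above kept cells in TAT-CRE 207 (10728 against 8759 CPM), TAT-CRE 208 (11933 against 9273 CPM) and PBS 216 (9742 against 9146 CPM) and below them in TAT-CRE 215 (9108 against 9338 CPM) and PBS 218 (7311 against 9158 CPM, from 4 wells). The intervals above pool wells over mice and treat UMIs as independent, so they do not measure the spread between mice. Of the 223 wells under the UMI minimum, 102 came from PBS 218. The rank correlation of the 56 member levels between mice was 0.83 to 0.86 within groups and 0.79 to 0.89 between groups, given as a description, since members are not replicates.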
